A study of Mus musculus with 12 samples.

Results

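ARNT binding was compared between N1E115 cells kept at 4% O2 and N1E115 cells kept at 20% O2. The comparison rests on the 4 peak lists of ARNT chromatin immunoprecipitation, 2 at 4% O2 and 2 at 20% O2, out of 8 peak lists and 12 samples in the series. These 4 lists hold 43922 of the 119057 peaks of the series. The other samples are 4 HIF1A libraries, whose lists are used here as a second readout of the ARNT sites, and 4 inputs (fragmented chromatin with no antibody). N1E115 is a mouse neuroblastoma line that the labels call NOS1+, that is, positive for neuronal nitric oxide synthase. In both groups the cells were grown for 3 days with 5% CO2 at ambient pressure, and per the labels the groups differed in oxygen alone. Every ARNT list was called against input 4 of its own oxygen level, so both lists of a group share that input. The data come from a single tumour cell line, and the labels do not say whether the replicates were separate cultures, so a p-value over these samples measures their spread, which may be technical. Peak lists measure no RNA, and the labelled cell type was not checked with marker genes.

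ARNT, also called HIF-1 beta, is a basic helix-loop-helix PAS protein. It is present at all oxygen levels and pairs with the HIF alpha subunits, which prolyl hydroxylases mark for destruction while oxygen is plentiful, and with other PAS proteins such as AHR. The HIF-1 dimer binds the hypoxia response element, whose core is ACGTG or GCGTG. The AHR dimer binds GCGTG as well, and CACGTG is the E-box read by many other helix-loop-helix factors. Genes with hypoxia response elements include those of glycolysis, of the turnover of mitochondria and of vessel growth. CCAAT, the site of the factor NF-Y, is common in promoters of genes of the dividing cell.

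Promoters from each class of site show what lies under the peaks. A site was called gained where both 4% O2 lists had a peak and neither 20% O2 list did, kept where all 4 lists had one, and lost where both 20% O2 lists had one and neither 4% O2 list did. The sequences are RefSeq promoter windows of build GRCm38.p6, which is mm10, from 250 bases before to 50 bases after the annotated start, written 5′ to 3′ along the gene. Capitals mark the core ACGTG, the core GCGTG, the E-box CACGTG and the box CCAAT, each on either strand, and a CACGTG holds ACGTG on both strands. Among the genes named below, the 3 highest-ranking gained sites over such a window lay at Bnip3 (chr7:138909457-138909756, minus strand), which encodes a receptor for the removal of mitochondria, Mrpl45 (chr11:97315466-97315765, plus strand), a protein of the mitochondrial ribosome, and Fam162a (chr16:36071512-36071811, minus strand), a mitochondrial protein induced by hypoxia.
Bnip3: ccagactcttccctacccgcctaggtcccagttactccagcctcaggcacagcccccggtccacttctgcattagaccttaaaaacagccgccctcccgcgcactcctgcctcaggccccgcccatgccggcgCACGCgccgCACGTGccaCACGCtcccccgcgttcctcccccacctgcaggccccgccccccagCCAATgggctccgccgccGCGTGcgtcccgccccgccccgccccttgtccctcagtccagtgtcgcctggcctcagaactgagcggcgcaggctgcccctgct
Mrpl45: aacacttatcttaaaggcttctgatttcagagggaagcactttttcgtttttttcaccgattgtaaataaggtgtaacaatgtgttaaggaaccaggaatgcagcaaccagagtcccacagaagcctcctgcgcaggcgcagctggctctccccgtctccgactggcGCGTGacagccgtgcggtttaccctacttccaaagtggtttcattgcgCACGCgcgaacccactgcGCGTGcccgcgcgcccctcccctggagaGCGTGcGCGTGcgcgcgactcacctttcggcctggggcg
Fam162a: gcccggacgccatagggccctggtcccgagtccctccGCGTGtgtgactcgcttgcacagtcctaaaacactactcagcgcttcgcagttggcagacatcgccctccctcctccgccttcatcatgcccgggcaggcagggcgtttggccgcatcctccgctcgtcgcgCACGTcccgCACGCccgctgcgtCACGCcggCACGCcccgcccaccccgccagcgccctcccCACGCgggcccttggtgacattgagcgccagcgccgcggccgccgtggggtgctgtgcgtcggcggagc
Bnip3 held 1 CACGTG, 3 GCGTG and 1 CCAAT, Fam162a held 1 ACGTG and 5 GCGTG, and Mrpl45 held 5 GCGTG.

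Among the genes named, the 3 kept sites with the highest ranks at 4% O2 over a promoter window lay at genes of glycolysis. They were Pgam1 (chr19:41911621-41911920, plus strand), a phosphoglycerate mutase, Pfkl (chr10:78009758-78010057, minus strand), the liver-type phosphofructokinase, and Pgk1 (chrX:106186850-106187149, plus strand), phosphoglycerate kinase. Among sites lost at equal list length, explained below, the highest-ranking one over a window lay at Hnrnpl (chr7:28810640-28810939, plus strand), which encodes a splicing regulator.
Pgam1: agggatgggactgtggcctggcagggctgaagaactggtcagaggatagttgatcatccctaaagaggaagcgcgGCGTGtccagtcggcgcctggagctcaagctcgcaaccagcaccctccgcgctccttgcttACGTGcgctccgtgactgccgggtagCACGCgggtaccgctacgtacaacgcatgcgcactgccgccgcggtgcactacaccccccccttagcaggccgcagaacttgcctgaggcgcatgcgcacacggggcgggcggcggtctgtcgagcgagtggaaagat
Pfkl: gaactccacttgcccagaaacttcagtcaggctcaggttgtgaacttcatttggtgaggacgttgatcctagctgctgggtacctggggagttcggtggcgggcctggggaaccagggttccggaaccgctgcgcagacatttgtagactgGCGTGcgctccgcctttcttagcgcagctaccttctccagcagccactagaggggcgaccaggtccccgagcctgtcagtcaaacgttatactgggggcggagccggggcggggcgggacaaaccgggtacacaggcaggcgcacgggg
Pgk1: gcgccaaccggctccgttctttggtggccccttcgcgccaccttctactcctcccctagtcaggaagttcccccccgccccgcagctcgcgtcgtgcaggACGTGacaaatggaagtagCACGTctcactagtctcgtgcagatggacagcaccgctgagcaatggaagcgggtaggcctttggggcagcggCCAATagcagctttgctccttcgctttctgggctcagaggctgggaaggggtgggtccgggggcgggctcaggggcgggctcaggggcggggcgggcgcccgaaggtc
Hnrnpl: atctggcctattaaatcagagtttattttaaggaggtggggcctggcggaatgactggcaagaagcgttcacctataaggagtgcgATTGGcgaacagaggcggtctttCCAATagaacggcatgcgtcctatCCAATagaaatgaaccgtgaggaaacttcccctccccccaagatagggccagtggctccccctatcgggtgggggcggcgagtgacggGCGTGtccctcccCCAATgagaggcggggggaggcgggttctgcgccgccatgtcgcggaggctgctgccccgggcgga
Pgk1 held 2 ACGTG and 1 CCAAT, Pgam1 held 1 ACGTG and 2 GCGTG, and Pfkl held 1 GCGTG. Hnrnpl held no ACGTG, 1 GCGTG and 4 CCAAT. Of all 21020 windows, 21.1% hold ACGTG, 38.8% GCGTG, 7.91% CACGTG and 38.5% CCAAT, so a single match is common.

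Replicates 1 and 2 at 4% O2 gave 24942 and 9920 ARNT peaks, against 7252 and 1808 for the replicates at 20% O2. Both 4% O2 lists were longer than both 20% O2 lists. Within a replicate number the lists at 4% O2 were 3.44 and 5.49 times as long, a mean log2 difference of 2.12 (two-sided exact permutation test, p = 0.333). That is the smallest p that 2 samples against 2 allow. Depth is unknown because the files hold no numbers of reads, and list length moves with depth as well as with binding. Their part in the difference was not tested. Per the file headers, both replicate 1 libraries were read on 1 flow cell lane, so replicate 1 gives the comparison within a lane. Of the replicate 2 libraries, the 4% O2 one was read on a different flow cell and the 20% O2 one on a different lane of the same flow cell. That 4% O2 replicate 2 list stood apart, with 55.8% of its peaks within 5 kb of an end of a protein-coding gene, against 37.7% in the other 4% O2 list and 33.6% and 41% at 20% O2. Main counts that rest on it are therefore also given without it.

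Because a long list overlaps any other list more often, each comparison was made with the lists as deposited and with the 1808 highest-scoring peaks of each list, the length of the shortest. Peaks were ordered by the authors' score, whose scale is not stated. A percentile rank, as used below, is a peak's position by score within its own full list, with 100 for the highest. The 1808 peaks were the top 7.25% and 18.2% of the 4% O2 lists and 24.9% and 100% of the 20% O2 lists. At this length the median peak was 276 and 390 bp wide at 4% O2, against 164.5 and 129 bp at 20% O2 (mean difference 186 bp, two-sided exact permutation test, p = 0.333). As deposited, the median widths were 141 and 181 bp at 4% O2 and 135 and 129 bp at 20% O2 (mean difference 29 bp, exact permutation p = 0.333). The share of peaks within 5 kb of a gene end at equal length was 51.1% and 55% at 4% O2, against 43.3% and 41% at 20% O2 (mean difference 10.9 percentage points, exact permutation p = 0.333). Without the 4% O2 replicate 2 list, the difference of the full lists was 0.359 percentage points, against 9.40 with it (exact permutation p = 0.667). At equal length the 4% O2 groups were above the 20% O2 groups in width and in this share, with no overlap.

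The strongest ARNT peaks at 4% O2 were largely not the strongest at 20% O2. At equal length, 63.3% of the 4% O2 replicate 1 peaks overlapped the other 4% O2 list, while 25.4% and 23.1% overlapped the 20% O2 lists of replicates 1 and 2. Of the 4% O2 replicate 2 peaks, 9.35% and 8.57% overlapped them. The 20% O2 lists shared 53.3% of replicate 1 peaks with each other. Overlap between oxygen levels was thus below overlap within either level for every pair of lists, and lowest for the 4% O2 replicate 2 list.

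**Figure D1:**
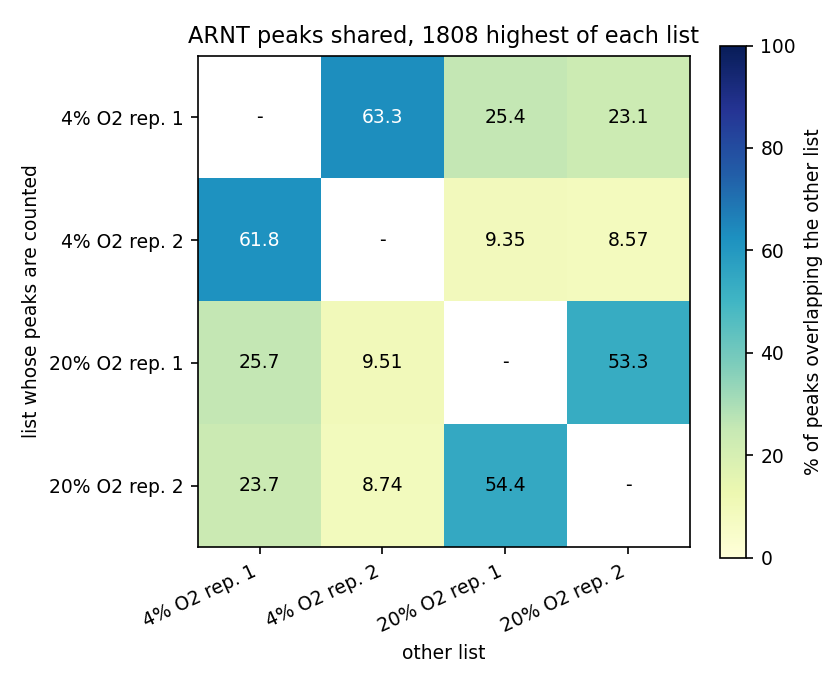
Percent of the 1808 highest-scoring ARNT peaks of each list (rows) that overlap the 1808 highest of another list (columns) by at least 1 bp, with replicates 1 and 2 at 4% O2 and at 20% O2. Pairs within an oxygen level lie between 53.3% and 63.3%, and pairs across oxygen levels at or below 25.7%.

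Counted within a replicate number, 74.6% of the 4% O2 replicate 1 peaks (95% Wilson interval 72.5 to 76.5) had no 20% O2 partner at equal length, and 91.4% of the replicate 2 peaks (90.0 to 92.6). In the other direction, 74.3% and 91.3% of the 20% O2 peaks had no partner at 4% O2. These intervals, like the others below, cover the counting of regions and not the spread between samples. With the full lists the shares were lopsided. At 4% O2, 19216 peaks of replicate 1 (77.0%) and 9380 of replicate 2 (94.6%) had no 20% O2 partner, while at 20% O2 1516 peaks of replicate 1 (20.9%) and 1261 of replicate 2 (69.7%) had no 4% O2 partner. With replicate 1 at 7252 peaks per list, the shares without a partner were 60.4% at 4% O2 and 59.7% at 20% O2. With lists of equal length the shares in both directions are nearly equal by construction, so they show how much the top of the list differed and not a direction.

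Over both replicates, the full lists gave 6893 regions at 4% O2 and 1647 regions at 20% O2 with a peak in both lists of the group. Of the 4% O2 regions, 5277 (76.6%) were gained, 536 (7.78%) were kept and 1080 had a peak in 1 of the 20% O2 lists. Of the 20% O2 regions, 77 (4.68%) were lost, 529 kept and 1041 had a peak in 1 of the 4% O2 lists. At equal length there were 1117 regions at 4% O2 and 962 at 20% O2. Of the 4% O2 regions 927 were gained (83.0%, 80.7 to 85.1) and 108 kept (9.67%), and of the 20% O2 regions 612 were lost (63.6%, 60.5 to 66.6). Most sites lost at equal length still had a weaker peak in a full list at 4% O2: 579 of the 612 (94.6%) were present in replicate 1, with a median rank of 81.9, and 121 (19.8%) in replicate 2, with a median rank of 43.9. Fewer of the gained sites were present in a full 20% O2 list, with 164 of the 927 (17.7%, median rank 38.7) in replicate 1 and 0 in replicate 2, whose full list is the equal-length list. The full replicate 1 lists hold 24942 peaks at 4% O2 and 7252 at 20% O2, and a longer list overlaps more sites. These shares therefore do not compare loss with gain. Leaving out the 4% O2 replicate 2 list, the shares at equal length were 70.5% gained, 19% kept and 64.1% lost.

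**Figure D2:**
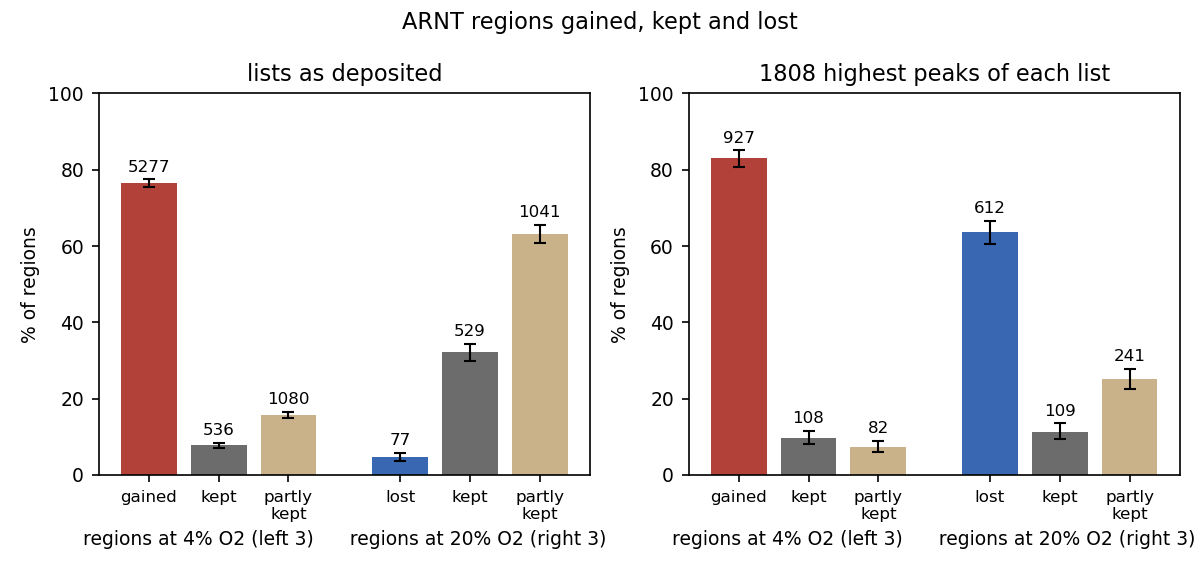
Percent of ARNT regions gained, kept or partly kept at 4% O2 (left 3 bars) and lost, kept or partly kept at 20% O2 (right 3 bars), for the full lists and for 1808 peaks per list, with 95% Wilson intervals and the number of regions above each bar. The lost share is 4.68% with the full lists and 63.6% at equal length.

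The highest-ranking gained sites included known HIF targets such as Bnip3, P4ha2 and Hilpda, and 54.7% of all 5277 gained sites lay within 5 kb of a gene end. The 10 gained sites with the highest mean rank in the full lists were nearest to Rassf7, Psma6, Bnip3, Kdm6b, Mrpl45, Fam162a, P4ha2, Garre1, Fbxo16 and Hilpda. The site at Rassf7, a RAS-association domain protein, lay outside the gene 3381 bp from its end (chr7:141221606-141222472) and ranked 99.9 and 99.96 in the 4% O2 lists, with no peak at 20% O2. The site at Bnip3 (chr7:138908749-138910371) ranked 99.9 and 99.8 at 4% O2. Kdm6b encodes a histone H3 lysine demethylase, and its site inside the gene (chr11:69418552-69419202) ranked 99.8 in both 4% O2 lists. P4ha2, a collagen prolyl hydroxylase, and Hilpda, a lipid droplet protein, had sites 72 and 185 bp from a gene end, with ranks of 99.8 and 99.7 for P4ha2 and of 99.6 and 99.8 for Hilpda. Psma6, a proteasome subunit, was the nearest gene to a site 25250 bp away (chr12:55442953-55444466), the farthest of the 10. Each of these 10 sites also had a HIF1A peak in both 4% O2 lists and in the 20% O2 replicate 2 list, and none in the 20% O2 replicate 1 list of HIF1A. At equal length Ulk1, a kinase that starts autophagy, Kdm3a, another histone demethylase, Aldoa, an aldolase, Prep, a prolyl endopeptidase, and Ccdc58 joined the 10 highest. The Ulk1 site lay inside the gene, 8059 bp from its nearer end. Ulk1 (61.3), Kdm3a (58.1), Aldoa (65.4) and Prep (70.6) each had a peak of the rank given in the full 20% O2 replicate 1 list, and the Ccdc58 site is the one printed for Fam162a, whose gene it adjoins.

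Kept sites held the highest-ranking peaks of both oxygen levels. The kept site with the highest mean rank lay 421 bp from Narf, which encodes a protein that recognises prelamin A (chr11:121236295-121237336). It ranked 99.96 and 99.8 at 4% O2, and it was the highest peak of both 20% O2 lists. Ankrd37, an ankyrin repeat protein known as a HIF target, ranked 99.9 in both 4% O2 lists, against 99.9 and 99.7 at 20% O2. The site inside Egln3, the prolyl hydroxylase that marks HIF alpha subunits (chr12:54191803-54192701), ranked 99.96 and 99.8 at 4% O2 and 98.6 and 96.0 at 20% O2. Pgam1 ranked 99.99 in both 4% O2 lists, against 97.4 and 94.1 at 20% O2. The others of the top 10 were Khsrp, an RNA-binding protein, Chd2, a chromatin remodeller 76799 bp from its site, Lrrc4c, 1030680 bp from its site, Slc26a8, an anion transporter, Dynll1, a dynein light chain, and Srbd1. The site 5875 bp from Srbd1 ranked 99.4 and 92.5 at 4% O2 and 99.99 and 99.94 at 20% O2, and it was the one site of the 10 with no HIF1A peak in any of the 4 HIF1A lists.

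Sites lost with the full lists were few, narrow and mostly away from gene ends. Of the 77, 13.0% lay within 1 kb of a gene end, against 58.0% of the kept and 20.8% of the partly kept regions at 20% O2. Partly kept regions there had a peak in 1 of the 4% O2 lists, and they too lay mostly away from gene ends. The median width was 145 bp for lost, 228 bp for kept and 196 bp for partly kept regions at 20% O2. Among regions at 4% O2, 41.1% of the gained and 57.6% of the kept sites lay within 1 kb, with median widths of 250 bp and 366 bp. The highest were inside Edem1, which acts in the breakdown of misfolded glycoproteins (chr6:108843697-108843971, ranks 95.2 and 92.4 at 20% O2), and inside Tmx3, a thioredoxin-like protein of the endoplasmic reticulum (ranks 95.3 and 90.7). Next came sites nearest to Meis2 and Etv6, both transcription factors, and to Ccdc7b, Clpb, Anks1, Jagn1, Cfap126 and Dip2b. Of these 10, the 5 at Edem1, Tmx3, Etv6, Ccdc7b and Clpb had no peak in any HIF1A list, while those at Meis2 and Cfap126 had one in all 4.

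At equal length, 36.6% of the 612 lost sites lay within 5 kb of a gene end, against 53.1% of the gained and 60.2% of the kept sites. The highest was at Hnrnpl (chr7:28810548-28810916), which ranked 91.5 and 66.1 at 4% O2 and 98.9 and 98.3 at 20% O2. Arf2, a small GTPase of membrane traffic, ranked 84.4 and 76.8 at 4% O2, against 98.6 and 95.4 at 20% O2. A site inside Arntl, the clock subunit BMAL1 (chr7:113207130-113207418), ranked 87.8 and 65.6 at 4% O2 and 98.6 and 95 at 20% O2. These 3 were the members of the top 10 with a peak in the full 4% O2 replicate 2 list. The others, Dnajb12, a co-chaperone, Ndufaf1, an assembly factor of respiratory complex I, Kptn, Slit3, an axon guidance ligand, Taf15, an RNA-binding protein, Pds5a, a cohesin regulator, and Faim, an apoptosis inhibitor, ranked between 61.6 and 91.7 in the 4% O2 replicate 1 list. Kptn, Slit3, Taf15, Pds5a and Faim had no HIF1A peak in any of the 4 HIF1A lists.

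The 536 kept sites differed in order between oxygen levels, with no common direction. A percentile rank depends on list length, since the same position from the top ranks higher in a longer list. For replicates 1 and 2 their median rank was 93.6 and 65.1 at 4% O2 and 87.8 and 61.7 at 20% O2. Within a replicate number, 219 of them (40.9%) ranked higher at 4% O2 in both pairs of lists and 171 (31.9%) ranked lower in both. The median difference was 3.41 percentile points for replicate 1 and -2.60 for replicate 2, so it had no common sign. The sites were also ordered among the 536 alone, a scale that does not use list length, though list length affects which sites are kept. On it, 193 (36.0%) stood higher at 4% O2 in both pairs and 225 (42%) lower in both. Which direction was more frequent thus depended on the scale. By percentile rank, the largest positive differences were at sites nearest to Tspan2, Arl4a, Dnajc16, Kif6 and Cfap221. The site inside Tspan2, a tetraspanin, ranked 98.8 and 93.7 at 4% O2, against 24.2 and 8.43 at 20% O2. The site inside Kif6, a kinesin, ranked 98.0 and 95.4 at 4% O2, against 41 and 4.56 at 20% O2. Among the 536 sites, Tspan2 stood at 88.8 and 86.9 at 4% O2, against 4.76 and 5.88 at 20% O2 (100 for the highest). The difference was thus present on that scale too. The part of depth and list length in it was not tested.

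Among the largest negative differences were sites within 500 bp of Cdc25c, Rspry1, Spag7 and Srgap2. Cdc25c encodes the phosphatase that activates CDK1 at entry into mitosis, and its site 129 bp from the gene ranked 18.3 and 0.811 at 4% O2, against 92.5 and 80.6 at 20% O2. It was low in both 4% O2 lists. Rspry1, Spag7 and Srgap2 ranked 83.7, 89.6 and 87.2 in the 4% O2 replicate 1 list and 1.77, 1.61 and 6.54 in replicate 2, against 94.5, 97.0 and 95 in the 20% O2 replicate 1 list and 87.5, 80.6 and 85.1 in replicate 2. Among the 536 sites the 3 stood at 21.4, 34.9 and 28.8 in the 4% O2 replicate 1 list, against 69.6, 78.5 and 71.0 in the 20% O2 replicate 1 list, lower within the lane as well. Cdc25c had no HIF1A peak in any list.

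**Figure D3:**
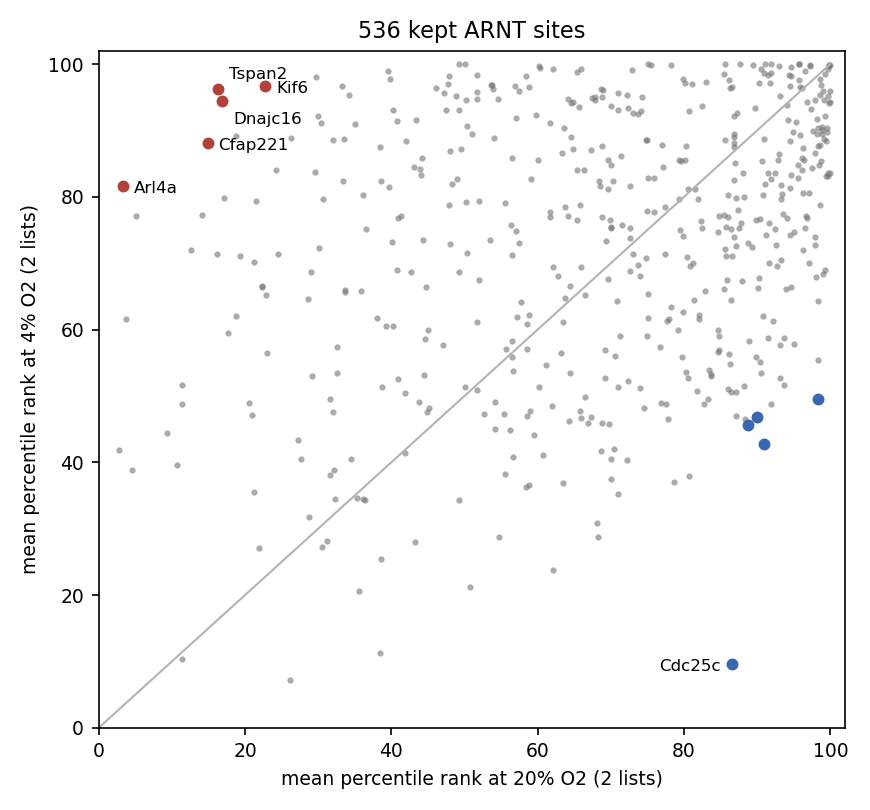
Mean percentile rank of the 536 kept ARNT sites at 4% O2 (vertical axis) and at 20% O2 (horizontal axis), each over 2 lists, with the line of equal rank. Red points are the 5 largest positive and blue points the 5 largest negative differences, and Cdc25c lies at 9.54 at 4% O2 and 86.6 at 20% O2.

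Promoters under gained and lost sites differed in the motifs they hold. At equal length, 293 promoter windows (268 genes) lay under gained sites and 174 windows (159 genes) under lost sites. ACGTG was present in 64.5% of the windows under gained sites (58.9 to 69.8) and in 19% of those under lost sites (13.8 to 25.4), against 21.1% of all promoters. CCAAT went the other way, with 41% under gained sites (35.5 to 46.7) and 63.8% under lost sites (56.4 to 70.6), against 38.5% of all promoters. Of the 55 windows under kept sites, 56.4% held ACGTG and 65.5% held CCAAT. The ACGTG share under kept sites was 34.2% without the 4% O2 replicate 2 list, 34.7% within replicate 1 alone and 36.6% with the full lists. The core GCGTG was present in 66.9% of windows under gained and 49.4% of those under lost sites, against 38.8% of all, and CACGTG in 14.3% and 5.17%, against 7.91% of all. The search used both strands, every CACGTG counts as ACGTG too, and CCAAT was added after the lost sites had been seen.

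The windows under both classes were richer in CpG than the average promoter, with a median of 24 CpG under gained and 21 under lost sites, against 13 over all. Among windows with 20 to 29 CpG, ACGTG was present in 64.3% under gained sites and 21.1% under lost sites, against 28.9% of all windows in that band, and CCAAT in 40.9% and 67.6%, against 39.2%. With 30 or more CpG (89 windows under gained and 26 under lost sites), ACGTG was present in 67.4% and 19.2%, against 29.3% of all, while CCAAT was present in 33.7% and 30.8%, against 26.6%, and GCGTG in 76.4% and 76.9%, against 67.7%. Both of those motifs were thus about as frequent under gained as under lost sites in that band. Leaving out the 4% O2 replicate 2 list, ACGTG was present in 68.2% of windows under gained and 19.7% under lost sites, and CCAAT in 45.3% and 63.5%. Within replicate 1 alone, read on 1 lane, the shares were 67.5% and 23.5% for ACGTG and 45.1% and 58.2% for CCAAT. With the full lists, 49.5% of the 1793 windows under gained sites held ACGTG, and 11 windows lay under lost sites, of which 2 held ACGTG and 4 held CCAAT.

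**Figure D4:**
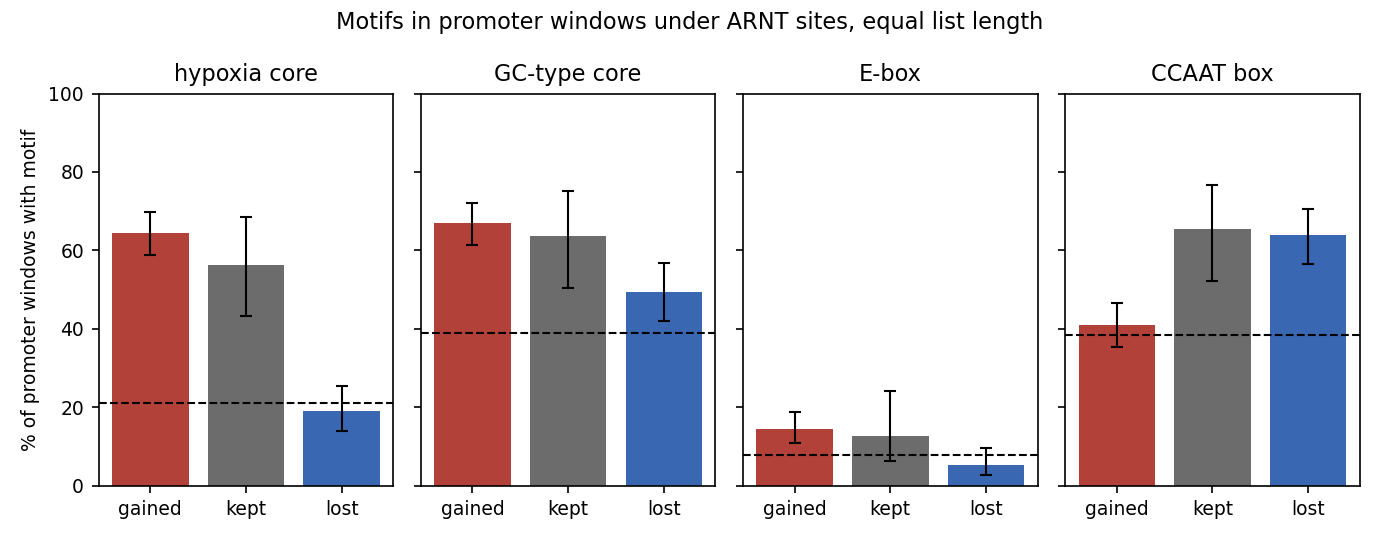
Percent of RefSeq promoter windows under gained, kept and lost ARNT sites at equal list length that hold a motif, with 95% Wilson intervals. The motifs are ACGTG (titled hypoxia core), GCGTG (titled GC-type core, also a hypoxia core), CACGTG (E-box) and CCAAT. The dashed line is the share of all 21020 windows. ACGTG is at 64.5% under gained and 19% under lost sites, and CCAAT at 41% and 63.8%.

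HIF1A peaks lay at most gained ARNT sites. Of the 5277 gained sites of the full lists, 98.1% overlapped a peak of the 4% O2 replicate 1 list of HIF1A and 84.6% one of replicate 2, against 4.34% and 44.7% for the 20% O2 lists of replicates 1 and 2. Of the kept sites 92.7% and 71.5% overlapped the 4% O2 HIF1A lists, against 41% and 68.8% for the 20% O2 lists. Of the 77 lost sites 62.3% and 9.09% overlapped the 4% O2 HIF1A lists, against 45.5% and 49.4% for the 20% O2 lists. At equal length, 99.9% and 99.6% of gained sites and 88.4% and 50% of lost sites overlapped the 4% O2 HIF1A lists of replicates 1 and 2. The 20% O2 HIF1A lists of replicates 1 and 2 overlapped 10.7% and 86.8% of these gained sites and 60.6% and 67.8% of these lost sites, so most gained sites had a HIF1A peak in 1 of the 20% O2 lists. The replicate 2 lists of HIF1A give positions of 1 bp, which can overlap fewer sites than intervals do. The HIF1A lists also differ in length (42701 and 13655 peaks at 4% O2, against 5393 and 13386 in the 20% O2 lists), and HIF1A replicate 1 shares input and lane with ARNT replicate 1, whose part in these shares was not tested. Without the 4% O2 replicate 2 list of ARNT, 38.0% of gained sites of the full lists and 95% of those at equal length overlapped HIF1A at 4% O2 replicate 2.

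The same comparison was made by gene. A gene counted as bound in a list where a peak lay within 5 kb of either of its ends, and at an oxygen level where both lists had one. Of 21631 protein-coding genes, 4946 (22.9%) were bound at 4% O2 and 953 (4.41%) at 20% O2 with the full lists. Of all genes 3167 (14.6%) were gained, 650 (3%) kept and 12 (0.0555%) lost, and 1129 (5.22%) were partly kept, that is, bound at 4% O2 and in 1 of the 20% O2 lists. At equal length 781 (3.61%) were bound at 4% O2 and 651 (3.01%) at 20% O2, with 587 (2.71%) gained, 122 (0.564%) kept and 288 (1.33%) lost. Within replicate 1 at equal length, 5.43% of genes were bound at 4% O2 and 4.92% at 20% O2: 747 genes (3.45%) were gained, 428 (1.98%) kept and 637 (2.94%) lost, and within replicate 2 the counts were 1114, 184 and 837. Leaving out the 4% O2 replicate 2 list, so that 1 list stands for 4% O2, gave 8360 genes (38.6%) bound at 4% O2 with the full lists, of which 5533 (25.6% of all genes) were gained and 939 (4.34%) kept, with 14 (0.0647%) lost. It gave 696 genes (3.22%) gained, 345 (1.59%) kept and 306 (1.41%) lost at equal length. A gene's rank is that of its highest peak in each list, which need not be 1 site: among the list members named below, the highest peaks did not all overlap for Pkm, Ndufa4l2, Lonp1, Ddit4, Ero1a, Tet2, Dbp, Polr1b, Ccnb1 and Cks1b. The shares over all genes are the background for each gene list below, since neighbouring genes can share a peak and long lists reach many genes.

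The 12 genes lost with the full lists were Pigc and Pigq, which act in making the membrane anchor glycosylphosphatidylinositol, Zfp120, Rnpc3, a protein of the minor spliceosome, Melk, a kinase of dividing cells, Slc2a9, a urate transporter, Jagn1, Olfr555, an odorant receptor, Taf1c, a subunit of the RNA polymerase I factor SL1, Nhlrc4, A930017K11Rik and Poli, a DNA polymerase that bypasses lesions. Pigq, Nhlrc4 and A930017K11Rik are neighbours with identical ranks (48.2 and 63.0 at 20% O2), so they rest on 1 peak. Melk ranked 68.9 and 76.2 at 20% O2 and Jagn1 93.5 and 67.8, with no peak near their ends at 4% O2. Slc2a9 had 3 and 2 peaks within its span extended by 5 kb at 4% O2, so the loss concerns its ends.

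Glycolysis genes held ARNT peaks of very high rank at 4% O2, and about as many were kept as gained. Of 26 genes of the pathway 9 (34.6%) were gained and 7 (26.9%) kept, against 14.6% and 3% of all genes, and none was lost. At equal length 10 were gained, 7 kept and none lost, against 2.71%, 0.564% and 1.33% of all genes. Pfkl ranked 99.996 and 99.98 at 4% O2, against 95.6 and 86.6 at 20% O2. Pgk1 ranked 100 and 99.95 at 4% O2, and it was the highest peak of the replicate 1 list, against 97.9 and 73.4 at 20% O2. Pkm, the pyruvate kinase of muscle and tumours, and Slc16a3, the lactate exporter MCT4, stood as high: Pkm ranked 99.97 and 99.8 at 4% O2, against 86.7 and 16.8 at 20% O2, and Slc16a3 ranked 99.99 and 99.9 at 4% O2, against 80.4 and 19.7 at 20% O2. Eno1, an enolase, ranked 99.9 and 99.6 at 4% O2 and 97.9 and 88.1 at 20% O2. Pdk1, the kinase that shuts pyruvate dehydrogenase, ranked 99.8 and 99.9 at 4% O2 and 81.2 in the 20% O2 replicate 1 list, with no peak in replicate 2. Aldoa ranked 99.8 and 99.9 at 4% O2 and 65.4 in that same 20% O2 list. Ldha, lactate dehydrogenase A, was gained, with ranks of 99.8 and 99.5 at 4% O2, 7 and 3 peaks in and around the gene at 4% O2 and 0 in both 20% O2 lists. Counted as positions from the top, which do not scale with list length, the highest peak of Pfkl was 2 and 3 at 4% O2, against 318 and 244 at 20% O2, and that of Pgk1 1 and 6, against 156.5 and 482 (tied peaks share a mean position). All 7 kept genes of the list stood nearer the top in both 4% O2 lists than in either 20% O2 list.

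Among the sensors and subunits of the pathway itself, the genes of the dimer were hardly bound. With 22.9% of all genes bound at 4% O2, an unbound gene was the common case. Arnt2, the neuronal paralogue of ARNT, Ahr and Nos1 had no peak in or within 5 kb of the gene in any list. Arnt had no peak near its ends, with 1 and 0 peaks in its span at 4% O2 and 1 and 1 at 20% O2. Hif1a had 1 peak near an end, ranked 13.9 in the 4% O2 replicate 1 list. Of 15 genes of oxygen sensing and feedback, 6 (40%) were bound at 4% O2: 5 (33.3%) were gained, 1 kept and 0 lost. The shares of all genes were 22.9%, 14.6%, 3% and 0.0555%. At equal length 2 (13.3%) were gained and 1 kept, against 2.71% and 0.564% of all genes. Without the 4% O2 replicate 2 list 8 (53.3%) were gained with the full lists, against 25.6% of all genes. Egln1, the main HIF prolyl hydroxylase, ranked 99.0 and 95.6 at 4% O2, and Vhl, the ubiquitin ligase subunit that captures hydroxylated HIF alpha, 94.5 and 95.5, both with no peak at 20% O2. Siah2, a ligase that acts on prolyl hydroxylases, Hif3a, another alpha subunit, and Cited2, which competes with HIF for its coactivator, were gained with ranks between 78.1 and 96.8. The kept gene was Ankrd37. Egln3 counts as bound near its ends in 1 list alone, because its strong site lies 11622 bp inside the gene, a gene with 10 and 4 peaks in or around it at 4% O2, against 2 and 1 in the 20% O2 lists.

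Genes for the removal and adaptation of mitochondria were mostly gained with the full lists. Of 14 such genes 9 (64.3%) were gained and 2 kept, against 14.6% and 3% of all genes, and none was lost. At equal length 5 (35.7%) were gained and 1 kept, against 2.71% and 0.564% of all genes, and 7 had no peak near an end in any list. With the full lists, Bnip3 counts as partly kept because of another peak near the gene, of rank 9.91 in the 20% O2 replicate 1 list. Its promoter site was gained. Fam162a (99.9 and 99.7 at 4% O2), Higd1a, a respiratory chain assembly protein (99.5 and 99.2), Bnip3l, the paralogue of Bnip3 (99.3 and 98.7), and Cox4i2, the hypoxic isoform of a cytochrome oxidase subunit (96.3 and 94.5), had no peak at 20% O2. Ndufa4l2, a replacement subunit induced in hypoxia, was kept, with ranks of 99.9 and 98.7 at 4% O2 and 90.9 and 79.1 at 20% O2. Lonp1, a mitochondrial protease, was kept at lower 20% O2 ranks of 34.1 and 61.7, against 99.5 and 99.2 at 4% O2. Pink1, a kinase that marks damaged mitochondria, was gained with 91.8 and 67.7 at 4% O2.

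Of 22 genes for vessels, iron and pH, 7 (31.8%) were gained, 3 (13.6%) kept and 0 lost with the full lists. The shares of all genes were 14.6%, 3% and 0.0555%. At equal length 5 (22.7%) were gained, against 2.71% of all genes, and none was kept or lost. Within replicate 1 alone at that length 1 was lost (4.55%), against 2.94% of all genes. Vegfa, the vascular growth factor, was gained with ranks of 97.4 and 86.1 at 4% O2, and 3 peaks lay in or around it in each 4% O2 list, against 0 in both 20% O2 lists. Car12, a carbonic anhydrase, Adm, the vasodilator adrenomedullin, Nos3, the endothelial nitric oxide synthase, and Pgf, another growth factor of the VEGF family, were gained with ranks between 94.5 and 99.4. Epo, the hormone of red cell production, was kept, with 99.9 in both 4% O2 lists against 74.0 and 76.2 at 20% O2. Tfrc, the transferrin receptor, was kept with 98.9 and 97.2 at 4% O2 against 9.91 and 49.5 at 20% O2. Ero1a, an oxidase of protein folding, had 98.1 and 97.4 at 4% O2 and 92.4 in 1 of the 20% O2 lists.

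Enzymes that use oxygen to modify chromatin, RNA or collagen formed a further group. Of 24 JmjC, TET and ALKBH demethylases 9 (37.5%) were gained and 3 (12.5%) kept with the full lists, against 14.6% and 3% of all genes. At equal length 7 (29.2%) were gained and 2 (8.33%) kept, against 2.71% and 0.564% of all genes. Alkbh5, which removes methyl groups from RNA adenine, was kept, with 99.98 and 99.9 at 4% O2 against 97.8 and 93.6 at 20% O2. Kdm4b was kept as well, with 99.9 and 99.7 at 4% O2 and 92.8 and 63.8 at 20% O2, and Jmjd6, Kdm6b, Kdm5b and Jarid2 were gained with ranks between 94.1 and 99.8. Tet2, a DNA demethylase, had 99.3 and 95.1 at 4% O2 and 30.3 in the 20% O2 replicate 2 list. Of 12 collagen hydroxylases and lysyl oxidases 4 (33.3%) were gained and 2 (16.7%) kept with the full lists, against the same 14.6% and 3%. At equal length 6 (50%) were gained and 1 (8.33%) kept, against 2.71% and 0.564%. P4ha1 was kept, with 99.9 and 99.97 at 4% O2 and 96.2 and 87.5 at 20% O2, while Plod2, P4hb and Loxl2 were gained with ranks between 92.5 and 99.7. No gene of either list was lost over both replicates. Within replicate 1 alone at equal length 1 demethylase gene (4.17%) was lost, against 2.94% of all genes.

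Among the other families that ARNT or its relatives can bind, no gene was kept with the full lists, against 3% of all genes. In lists of 11 to 25 genes, that count is near the share over all genes. The lists of lipid storage genes and of genes of other tissues had no kept gene either. Of 11 AHR pathway genes 3 (27.3%) were gained, against 14.6% of all genes, and none was kept or lost. The 3 were Nfe2l2, the regulator of antioxidant genes, Tiparp and Nqo1. At equal length none of the 11 was bound at either level, against 3.61% of all genes at 4% O2 and 3.01% at 20% O2. In a list of 11 genes that is near the share over all genes. Of 21 clock genes 8 (38.1%) were gained, 6 (28.6%) partly kept and none kept or lost, against 14.6% gained and 5.22% partly kept of all genes. At equal length 6 (28.6%) were gained, against 2.71% of all genes. Bhlhe40, a repressor of the clock that is also a HIF target, ranked 99.8 and 99.2 at 4% O2, with no peak at 20% O2. Ciart (98.9 and 98.4), Bhlhe41 (95 and 94.2) and Cry2 (93.9 and 88.5), all repressors of the clock, also had none at 20% O2. Dbp, a clock output factor, ranked 97.4 and 93.5 at 4% O2 and 68.9 in the 20% O2 replicate 1 list. Of 25 activity genes and neuronal PAS factors 12 (48.0%) were gained, against 14.6% of all genes, and none kept or lost. At equal length 5 (20%) were gained, against 2.71% of all genes. These were Ier3, Btg2, Fosb, Fosl2 and Dusp1, early response genes that ranked between 87.6 and 99.6 at 4% O2. Atf3, Bdnf, the neuronal growth factor, and Jun were gained at ranks of 70.7 to 86.7. Within replicate 1 alone at equal length 1 of the 25 (4%) was lost, against 2.94% of all genes.

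Housekeeping lists had lost genes at equal length, 2 in each list (5.13% to 8.33%), against 1.33% of all genes. As many genes were gained as lost in the lysosomal (6.67%) and ribosome biogenesis lists (8.33%), against 2.71% of all genes gained. The oxidative phosphorylation list had none gained. Of 39 oxidative phosphorylation genes 5 (12.8%) were gained and 2 (5.13%) kept with the full lists, against 14.6% and 3% of all genes. At equal length none was gained, 2 were kept and 2 lost. Without the 4% O2 replicate 2 list, 15 of the 39 (38.5%) were gained and 4 (10.3%) kept with the full lists, against 25.6% and 4.34% of all genes. With the full lists the gained share was thus near the background with that library and above it without. At equal length without that library, 1 of the 39 (2.56%) was gained, against 3.22% of all genes. Cyc1, cytochrome c1, ranked 98.2 and 88.2 at 4% O2 and 99.1 and 95.5 at 20% O2, and Atp5b, the catalytic subunit of ATP synthase, 98.7 and 85.7 at 4% O2 and 99.8 and 98.7 at 20% O2. Ndufa10, a subunit of complex I, was among the lost genes, with a rank of 87.4 in the 4% O2 replicate 1 list, no peak in replicate 2, and ranks of 97.4 and 78.5 at 20% O2. Of 30 lysosomal genes 9 (30%) were gained and 1 kept with the full lists, against 14.6% and 3% of all genes. At equal length 2 were gained and 2 lost. Sqstm1, an autophagy receptor and among those lost, ranked 88.7 in the 4% O2 replicate 1 list, was absent from replicate 2, and ranked 95 and 89.4 at 20% O2. The list named for MYC-bound ribosome biogenesis has 24 genes and also holds Polr2a, Cad, Odc1, Nme1 and Ldhb, which are not all ribosome genes. Of the 24, 6 (25%) were gained and 3 (12.5%) kept with the full lists, against 14.6% and 3% of all genes. At equal length Fbl and Npm1 were gained and Odc1 and Polr1b lost. Without the 4% O2 replicate 2 list 13 of the 24 (54.2%) were gained with the full lists, against 25.6% of all genes. Odc1, the first enzyme of polyamine synthesis, ranked 81.8 and 75.1 at 4% O2 and 84.5 and 70.3 at 20% O2. By position from the top it stood at 4540 and 2472 at 4% O2, against 1122.5 and 538.5 at 20% O2.

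Genes of mitosis and DNA replication had the most kept genes of the 17 lists with the full lists, being also the longest list; at equal length glycolysis had as many. These 54 genes were listed after Cdc25c, Melk and similar genes had been seen among the lost and lower-ranking sites, so their counts describe the lists and nothing more. With the full lists 32 (59.3%) were bound at 4% O2 and 24 (44.4%) at 20% O2, against 22.9% and 4.41% of all genes. Of the 54, 9 were gained, 18 (33.3%) kept and 1 (Melk) lost. At equal length 12 (22.2%) were bound at 4% O2 and 19 (35.2%) at 20% O2, against 3.61% and 3.01% of all genes, with 4 gained, 7 kept and 6 lost. Top2a, the topoisomerase that untangles chromosomes, ranked 99.1 and 68.0 at 4% O2 and 99.98 and 99.9 at 20% O2. Cdk1, the mitotic kinase, ranked 93.8 and 70.0 at 4% O2, against 97.6 and 84.6 at 20% O2. Ccnb1, its cyclin, ranked 95.1 and 61.7 at 4% O2 and 92.1 and 91.4 at 20% O2. Plk1, a kinase of spindle assembly, ranked 96.1 and 36.9 at 4% O2 and 98.6 and 90.7 at 20% O2. Cdk2 (98.4 and 92.1 at 4% O2, 99.9 and 99.5 at 20% O2) and Cks1b (97.8 and 85.4 at 4% O2, 99.9 and 99.4 at 20% O2) stayed high at both levels. By percentile rank, the lower values at 4% O2 came mostly from replicate 2. The same position from the top ranks higher in a longer list, so percentile ranks can hide a fall within replicate 1. Without the 4% O2 replicate 2 list, 20 of the 54 (37.0%) were bound at 4% O2 at equal length and 19 at 20% O2. The shares of all genes were 5.43% and 3.01%, and 4 of the 54 were gained, 13 kept and 6 lost. There 1 list stands for 4% O2 and 2 for 20% O2. Within replicate 1 alone at equal length, 20 were bound at 4% O2 and 21 at 20% O2, against 5.43% and 4.92% of all genes. Of the 54, 6 were gained, 14 kept and 7 lost there. Some members share a peak with a gene of another list, Uhrf1 with its neighbour Kdm4b and Ncapd2 with its neighbour Gapdh.

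Of 12 genes listed as brakes on growth, 6 (50%) were gained, 1 kept and 0 lost with the full lists. The shares of all genes were 14.6%, 3% and 0.0555%. At equal length 3 (25%) were gained and 1 kept, against 2.71% and 0.564% of all genes. The list counts Rassf7, though its site lay outside the gene, 3381 bp from its end, and its part in growth was not tested. Rassf7 ranked 99.9 and 99.96 at 4% O2, Mxi1, an antagonist of MYC, 99.1 and 97.2, and Cdkn1b, the inhibitor p27, 96.0 and 85.2, with no peak at 20% O2. Ddit4, an inhibitor of mTOR, counts as kept, but its highest peaks did not overlap between the oxygen levels. They ranked 99.7 in both 4% O2 lists and 96.9 and 89.4 at 20% O2, while the kept site 1203 bp from the gene ranked 95.6 and 19.7 at 4% O2, against 96.9 and 89.4 at 20% O2.

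**Figure D5:**
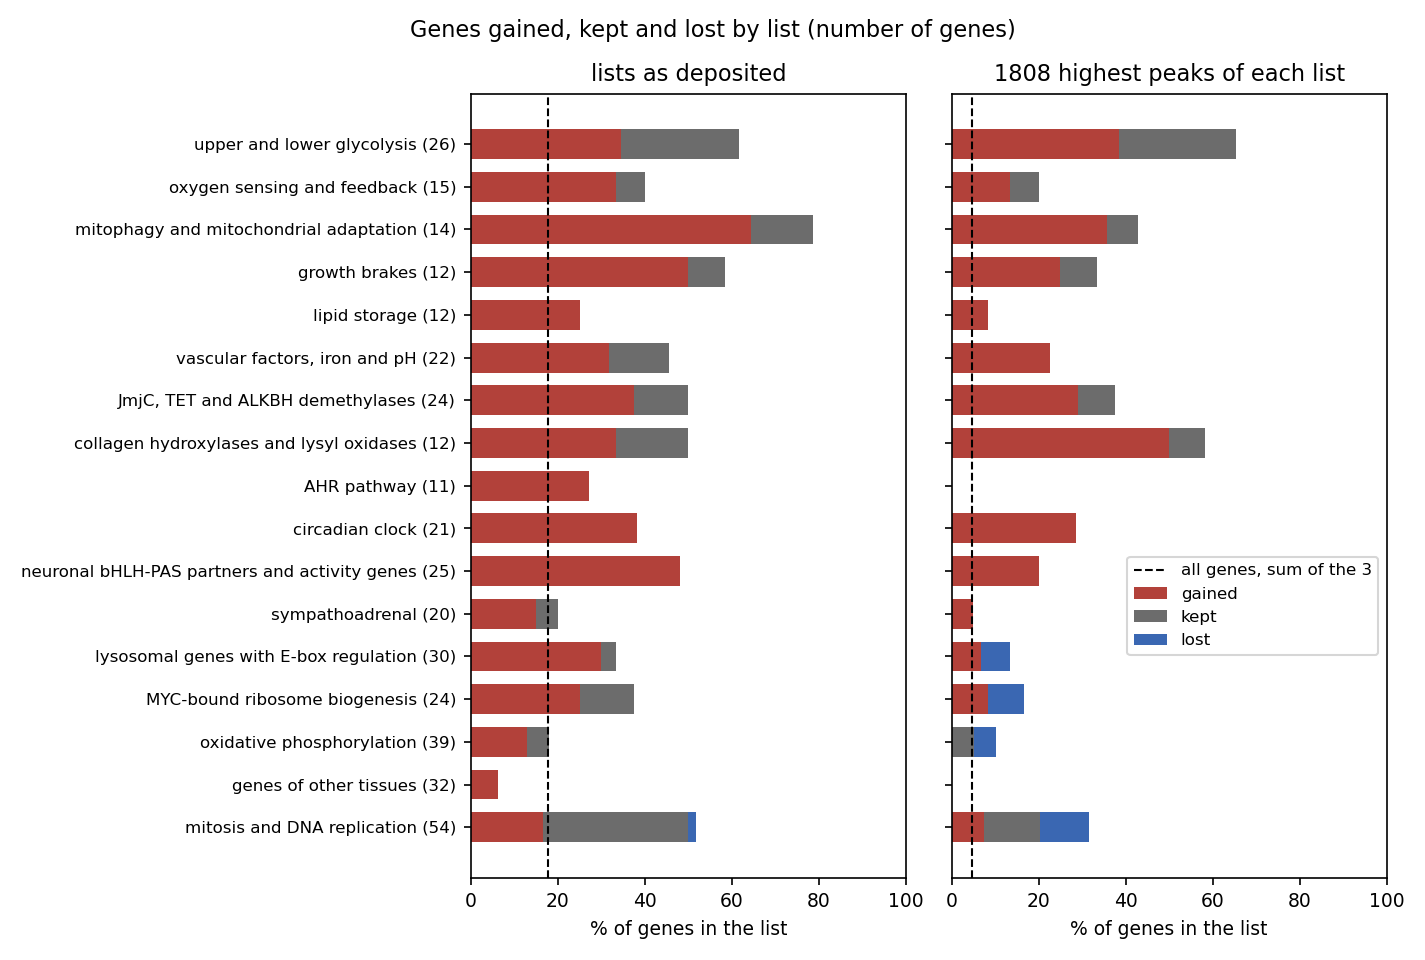
Percent of the genes of each list that were gained, kept or lost (stacked bars, number of genes in brackets), with the full lists and with 1808 peaks per list; the dashed line is the sum of the 3 classes over all 21631 genes, 17.7% and 4.61%. Lost genes appear at equal length in the lysosomal, ribosome biogenesis, oxidative phosphorylation and mitosis lists, and the mitosis list was made after seeing the data.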

How the data were processed

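ChIP peaks of ARNT and HIF1A were measured in N1E115 cells. Per the submitters' processing notes, the authors used BWA, Picard and MACS2 with build mm10. No version or option is stated in the labels or headers. The lists deposited by the authors give positions and a score per peak, called per ChIP sample against an input; the scale of the deposited score is not stated, so scores only order peaks within a list. The lists give no read counts, so depth is unknown, and no column belonged to samples outside the series (0).

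Peaks were compared with Python 3.11.15, NumPy 2.4.6, pandas 2.3.3, SciPy 1.17.1 and matplotlib 3.10.9, with an overlap of at least 1 bp, on full lists and on the 1808 highest-scoring peaks of each. Genes came from RefSeq GRCm38.p6, within 5 kb of either end; the gene table gives no exons, so places are inside or outside a gene. Promoter windows covered 79.8% of protein-coding genes. Of 394 gene list entries 392 matched by symbol and 1 by alias. Group differences over lists were tested by exact permutation, two-sided, and the scripts were tested on simulated data. Intervals are 95% Wilson and cover counting alone.

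Named sites were the 10 highest by mean rank in each class, the 5 largest rank differences in each direction among kept sites, up to 8 members of each list by mean rank at 4% O2, and 11 genes fixed by name (Hif1a, Arnt, Arnt2, Ahr, Arntl, Nos1, Vegfa, Egln3, Bnip3, Pgk1 and Ldha). Other list members named, such as lost ones, were chosen after their values were seen. Members and lists were chosen with earlier results of these data known. The CCAAT motif, the mitosis list, and the fits without 4% O2 replicate 2 or with replicate 1 alone at equal length were added after seeing the data. Other alternatives changed the score minimum, gene distance, list length and replicates. The replicate numbers were not shown to pair the samples. Some named sites and list members are not reported here by name; the counts include them. Positions from the top of a list, and the order among kept sites, were added after seeing the data.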

Additional observations from a re-analysis of the deposited data

How the results depend on the processing

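With peaks of score 10 or more, the log2 difference in peak number was 2.46, and gained, kept and lost sites were 84.9%, 5.94% and 8.14%. Replicate 1 alone gave 23.0% kept and 20.9% lost, and replicate 2 alone 94.6% gained, 5.44% kept and 69.7% lost. Leaving out 1 list at a time, gained sites ranged between 76.6% and 91.8%, kept between 5.11% and 23.0% and lost between 4.86% and 67.7%. At equal length, 50% of the shortest list gave 86.7% gained, 7.38% kept and 75.9% lost, replicate 1 at its own pair length 60.4%, 39.6% and 59.7%, and replicate 2 alone 91.4% gained and 91.3% lost. Leaving out lists there gave 70.5% to 88.2% gained, 6.14% to 19% kept and 64.1% to 88.1% lost. Kept genes numbered 415 within 1 kb, 1415 within 20 kb, 427 at the start alone and 330 with the score minimum, lost genes 19 within 20 kb, and at equal length 587 were gained, 122 kept and 288 lost. Leaving out lists gave 3195 to 5533 gained, 652 to 1751 kept and 14 to 301 lost genes. Without the 4% O2 replicate 2 list, 38.0% of gained and 58.5% of kept sites overlapped HIF1A at 4% O2 replicate 2. Over the leave-one-out fits the log2 difference in peak number was 1.12 to 3.12, that in share near gene ends 0.359 to 18.4 percentage points and that in width 9 to 49 bp. Ordered among the kept sites alone, 36.0% stood higher and 42% lower at 4% O2 in both pairs, against 40.9% and 31.9% by percentile rank. The cause of these shifts was not tested.

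With the replicate block the differences in peak number (2.12 on the log2 scale), share near gene ends (9.40 percentage points) and median width (29 bp) each had an exact permutation p of 0.500, the smallest that design allows. Deviations of same-numbered lists correlated at 0.186 over 28943 regions and at 0.0804 over the 5806 regions with a peak at both levels. Unknown depth limits every count that depends on list length.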

Other observations

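Markers of the sympathoadrenal lineage, from which neuroblastoma arises, gave counts that depended on 1 library. Of 20 such genes 3 (15.0%) were gained and 1 kept with the full lists, against 14.6% and 3% of all genes. Without the 4% O2 replicate 2 list 8 (40%) were gained and 13 (65%) bound at 4% O2, against 25.6% and 38.6% of all genes. Dbh, which makes noradrenaline, ranked 88.7 and 76.2 at 4% O2, and Gata2, a transcription factor, 80.3 and 62.5, both with no peak at 20% O2. Ddc, which makes dopamine, ranked 95.6 and 90.5 at 4% O2 and 51.6 in the 20% O2 replicate 1 list. Of 12 lipid storage genes 3 (25%) were gained with the full lists, against 14.6% of all genes, and none kept or lost. Hilpda was the 1 gene of that list (8.33%) bound at 4% O2 at equal length, against 3.61% of all genes. Of 32 genes of other tissues, 2 (6.25%) were gained with the full lists, Apoa1 and Scgb1a1, against 14.6% of all genes. None of the 32 was bound at equal length, against 3.61% of all genes at 4% O2 and 3.01% at 20% O2.

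Sites within 1 kb of a tRNA gene numbered 12 of the 5277 gained and 1 of the 77 lost sites. The lists held 5 and 2 peaks on the mitochondrial chromosome at 4% O2 and 8 and 0 at 20% O2.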
